A study of Mus musculus with 8 samples.

Results

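The 10 genes described here encode the cyclin-dependent kinase (CDK) inhibitors of the mouse and the 3 retinoblastoma-family pocket proteins. They were chosen by symbol, and each of the 10 symbols matched 1 row among the 22274 genes of the deposited count table. They fall into 3 families: CIP/KIP (Cdkn1a, Cdkn1b and Cdkn1c), INK4 (Cdkn2a, Cdkn2b, Cdkn2c and Cdkn2d) and RB (Rb1, Rbl1 and Rbl2). RNA was sequenced from 8 samples of RFB, a mouse kidney line whose cell type is labelled fibroblast. In 4 samples the treatment was TGF-β and in the other 4 it was TGF-β together with chaetocin, a fungal compound used to inhibit the histone methyltransferase SUV39H1 that also reacts with redox enzymes. Every sample therefore received TGF-β, and no value below measures what TGF-β itself does. The sources used here give no dose or time and do not say whether the samples were separate cultures. The p-values below therefore rest on variation among these 8 samples alone, and that variation may be technical. The design text of the series mentions SUV39H1 knockdown derivatives, whereas the sample labels name only the 2 treatments.

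Progress from G1 into S phase is driven by cyclin D with CDK4 or CDK6 and by cyclin E with CDK2, which phosphorylate the pocket proteins RB, p107 and p130 and so release E2F transcription factors. INK4 proteins bind CDK4 and CDK6 and keep cyclin D off them, while CIP/KIP proteins bind assembled cyclin-CDK complexes, chiefly those of CDK2. In epithelial cells TGF-β is well known to halt the cycle in part by inducing Cdkn2b and Cdkn1a, and in fibrotic kidney high CDK inhibitor levels are widely used as signs of arrest or senescence.

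All 10 genes had enough counts to be tested, and they did not move as a block: with chaetocin 4 were higher and 6 were lower at an adjusted p under 0.05 in edgeR's quasi-likelihood test, which is what a call means below. Calls were the rule in this comparison, since 80.7% of the 14608 genes tested were called, 42.0% higher and 38.8% lower, so being called sets none of the 10 apart. The sizes differed by family. All 4 INK4 genes were called at a fold of at least 2, against 24.6% of genes tested, 2 upward and 2 downward. Among CIP/KIP genes only Cdkn1c passed that fold, and no RB gene did. The median log2 fold change of the 10 was -0.28, beside 0.02 for all genes tested. Levels of a gene are given as CPM, counts scaled to library size with TMM factors, and levels of different genes are compared as FPKM, which also divides by gene length.

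**Figure D1:**
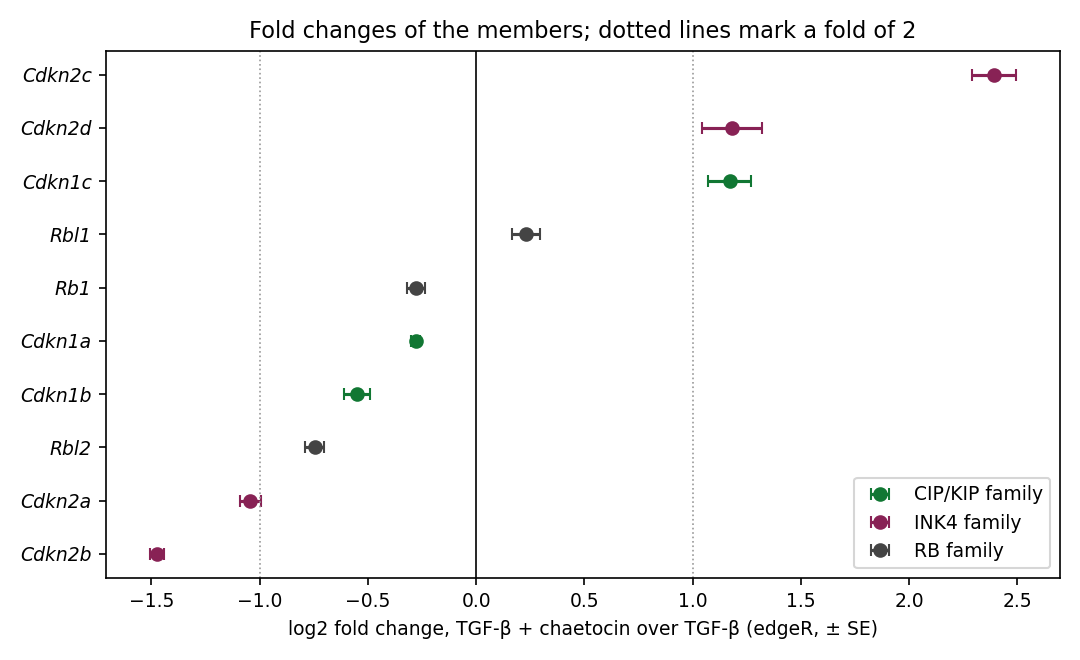
Log2 fold change of each member, TGF-β plus chaetocin over TGF-β alone, with its standard error from edgeR (4 libraries per group), coloured by family. The 4 INK4 genes sit outside the dotted lines at a fold of 2, with Cdkn2b at -1.47 and Cdkn2c at 2.39 as the extremes, and the RB genes lie between -0.74 and 0.23.

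Library totals were 20135312 to 23664084 counts with TGF-β alone. Chaetocin replicate 1 had 22591935, and chaetocin replicates 2 to 4 had fewer, 14421225 to 15084876. The cell type label was checked against marker genes. Of 13 fibroblast and mesenchymal markers, Fn1, Vim, Acta2 and Tagln were abundant, but Pdgfra, Thy1, Dcn and Lum had mean FPKM of 0.53, 0.83, 0.07 and 0.005 with TGF-β alone. Between these lay Col1a1 at 37.8, Col1a2 at 10.8, Postn at 7.7, Pdgfrb at 2.59 and Col3a1 at 1.475 FPKM. Several tubule epithelial markers were high in the same libraries, with Epcam at a mean of 157 and Cdh1 at 141 FPKM. Others on the epithelial list were low there, with Lrp2 at 4.21, Aqp1 at 1.59 and Umod at 0.23 FPKM. The summed FPKM of the 14 tubule epithelial markers was 2394 to 2485 with TGF-β alone and 4249 to 4444 with chaetocin, and that of the fibroblast list was 6096 to 6386 and 3735 to 4111. The epithelial list was not uniform, as 5 of its 12 tested genes were called higher and 6 lower. Aqp2 and Slc34a1 had at most 3 counts in every library. Keratin genes carried the rise of the sum, with Krt8 at 776 and 1919 FPKM, Krt18 at 543 and 1290 and Krt19 at 92 and 207. Cldn4 was at 612 FPKM with TGF-β alone and 464 with chaetocin. Of 12 tested fibroblast markers 2 were higher and 7 lower. Fn1 carried most of the fall of the list's sum, at a mean of 4374 and 2157 FPKM, since the other 12 listed genes added up to 1880.1 and 1724 FPKM. That second sum holds opposite moves, with Vim at 511 and 211 FPKM and Tagln at 685 and 537, but Acta2 at 621 and 945. The sum of 10 macrophage and leukocyte markers was 234 to 260 FPKM without chaetocin and 130 to 159 FPKM with it. Of these 10, 7 were lower, among them C1qa, C1qb and C1qc, and 3 were higher, Cd68 (mean 13.8 and 29.0 FPKM), Itgam and Ptprc. The 7 endothelial markers added up to 18 to 22 and 30.7 to 35.8 FPKM, and of 6 tested 5 were higher and 1 lower. These marker sums moved with treatment beside every value below, and their part in the results was not tested. In such bulk RNA a change in the number of cells of a type cannot be told from a change in RNA per cell.

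Cdkn2b and Cdkn2a, the INK4 genes with the highest levels, fell together. They are neighbours on chromosome 4 (GRCm38), both read from the minus strand, with 11646 bases between them. Cdkn2b (ENSMUSG00000073802, chr4:89306299-89311039) encodes p15INK4b. Cdkn2a (ENSMUSG00000044303, chr4:89274471-89294653) encodes p16INK4a from its downstream start and the p53 activator p19ARF from its upstream start. Gene counts add these 2 products up, so no value here separates p16INK4a from p19ARF. The sequences before the 3 starts are shown because these are the neighbouring members that fell together. They are from RefSeq on GRCm38.p6, minus strand, 5′ to 3′, up to the last base outside any GENCODE M21 exon, with matches to an E2F or cell cycle homology region (CHR) word in capitals.

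Cdkn2b, chr4:89311040-89311282: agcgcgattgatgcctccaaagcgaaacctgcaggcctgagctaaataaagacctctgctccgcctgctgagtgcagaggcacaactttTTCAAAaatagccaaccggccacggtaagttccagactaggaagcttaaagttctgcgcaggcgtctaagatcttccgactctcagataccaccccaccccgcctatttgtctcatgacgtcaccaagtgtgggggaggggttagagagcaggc
Cdkn2a, p19ARF start, chr4:89294654-89294869: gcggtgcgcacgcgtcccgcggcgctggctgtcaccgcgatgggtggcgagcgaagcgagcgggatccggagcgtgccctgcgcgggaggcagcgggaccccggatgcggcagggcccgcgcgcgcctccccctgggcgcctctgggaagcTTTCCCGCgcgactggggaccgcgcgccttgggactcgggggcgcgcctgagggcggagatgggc
Cdkn2a, p16INK4a start, chr4:89282193-89282442: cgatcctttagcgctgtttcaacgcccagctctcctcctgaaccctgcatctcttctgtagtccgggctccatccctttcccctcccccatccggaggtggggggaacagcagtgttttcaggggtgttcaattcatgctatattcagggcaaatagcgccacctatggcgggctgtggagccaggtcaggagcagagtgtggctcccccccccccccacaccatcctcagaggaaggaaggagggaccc

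The E2F search used the words TTTCCCGC, TTTGGCGC, TTTCGCGC and TTTGCCGC on both strands of the 250 bases before a start. The p19ARF start held 1 match, TTTCCCGC at -99 to -92 counted from the start, where 1.86% of 32851 RefSeq promoter windows of that length hold any. The CHR word TTTGAA was found on the opposite strand at -161 to -156 before Cdkn2b, and 16.0% of windows hold it. CpG dinucleotides numbered 40 before the p19ARF start, 7 before the p16INK4a start and 12 before Cdkn2b, with a median of 6 over all windows. These matches describe the letters only.

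Cdkn2b read 114, 114, 117 and 118 CPM in TGF-β libraries 1 to 4 and 41.8, 42.5, 40.4 and 42.0 CPM in chaetocin libraries 1 to 4. The groups were far apart, and within each the libraries differed by a few percent. Its log2 fold change was -1.47 ± 0.03 (SE), a 2.78-fold lower level (adjusted p = 4.72e-24), and 16.8% of genes tested had a larger change in either direction. Only 4.88% of genes tested were called lower at a fold of at least 2.

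Cdkn2a read 47.4, 50.3, 50.8 and 53.02 CPM with TGF-β alone and 25.2, 23.2, 24.9 and 24.3 CPM with chaetocin. The lowest TGF-β library was well above the highest chaetocin library. The log2 fold change was -1.04 ± 0.05 (SE; adjusted p = 5.51e-17), a 2.06-fold lower level, close to the fold of 2 used above. On deposited FPKM the log2 ratio was -0.93, short of that fold. The next protein-coding gene on the Cdkn2a side, Mtap, which encodes an enzyme of methionine salvage and lies 93390 bases away, was also lower, at -0.71 ± 0.03 (SE; adjusted p = 1.13e-16). On the other side Dmrta1, 368397 bases from Cdkn2b, was scarce at a mean of 0.81 and 1.11 CPM and was not called (log2 fold change 0.43 ± 0.27 SE; adjusted p = 0.134). Neighbours of all 10 members were looked up after the values of the members were seen. Several moved with their member, as Chd9 and Rpgrip1l (-0.56 and -0.49) did with Rbl2, which fell. Srsf3 (-0.20) fell with Cdkn1a and Itm2b (-0.63) with Rb1, while Faf1 (0.51) rose with Cdkn2c and Samhd1 (0.92) with Rbl1. Fewer went the other way. Cdkn1b fell between Gpr19 and Apold1, which were scarce and higher (1.34 and 2.14 on the log2 scale). Kri1, 441 bases from Cdkn2d, was at -0.30 while Cdkn2d rose. Ap1m2, 2868 bases from Cdkn2d on the other side, rose with Cdkn2d, at 0.22.

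Cdkn2c and Cdkn2d went the other way from much lower levels. Cdkn2c (ENSMUSG00000028551, chr4:109660876-109667189, minus strand) encodes p18INK4c. With TGF-β alone its libraries held 53 to 69 counts, or 2.89, 3.56, 2.62 and 2.99 CPM. With chaetocin it reached 15.5, 15.8, 16.1 and 16.0 CPM. No library of either group came near the other group, and the chaetocin libraries were nearly level. It had the largest change of the 10, a log2 fold change of 2.39 ± 0.10 (SE; adjusted p = 6.0e-18), or 5.25-fold higher, and 10.3% of genes tested had a larger one.

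Cdkn2d (ENSMUSG00000096472, chr9:21288410-21291407, minus strand), the gene of p19INK4d, read 2.99, 2.47, 2.52 and 3.48 CPM with TGF-β alone and 6.66, 6.65, 7.07 and 5.74 CPM with chaetocin. TGF-β replicate 4 was the highest of its group and chaetocin replicate 4 the lowest of its own, and the groups still did not overlap. The log2 fold change was 1.18 ± 0.14 (SE; adjusted p = 1.26e-08), 2.27-fold higher, and its libraries held only 48 to 156 counts. Called rises of at least 2-fold were seen in 19.7% of genes tested. The SP1 word GGGCGG occurred 3 times in the 250 bases before the upstream RefSeq start of Cdkn2c and 3 times before Cdkn2d (32.7% of windows hold it). It was also found before members that fell, 2 times before the p19ARF start of Cdkn2a, 2 times before the downstream start of Cdkn1a and 1 time before Cdkn1b. The window before Rbl1, which rose, held it 1 time. Neither the Cdkn2c nor the Cdkn2d window held an E2F or CHR word.

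These opposite moves changed the make-up of the INK4 transcripts. Their FPKM added up to 134 to 144 without chaetocin and to 73.2 to 74.2 with it. Cdkn2b made up 57.6% ± 0.85 (SD, n = 4) of the sum with TGF-β alone and 42.3% ± 0.82 with chaetocin, whereas the share of Cdkn2a was 39.8% ± 0.83 and 39.4% ± 1.51. Cdkn2c went from 1.10% ± 0.14 to 11.4% ± 0.58 of the sum and Cdkn2d, whose share was 1.28% to 1.77% with TGF-β alone, reached 6.87% ± 0.85. The ratio of Cdkn2b to Cdkn2c in FPKM was 45.7 to 61.9 with TGF-β alone and 3.58 to 3.93 with chaetocin. Set against the FPKM of their target kinases Cdk4 and Cdk6 together, the INK4 sum was 0.71 to 0.79 without chaetocin and 0.46 to 0.49 with it. These are transcript ratios, given as a description with no test. The Cdkn2a part of each sum also counts transcripts of the p53 activator p19ARF, which could not be taken out.

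**Figure D2:**
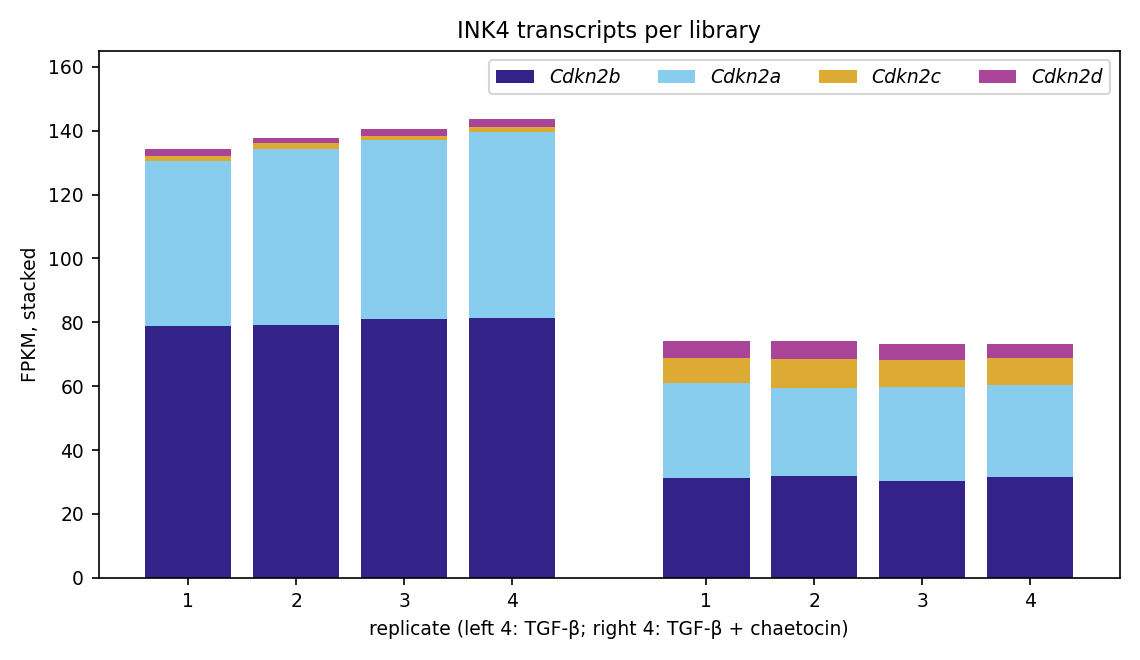
FPKM of the 4 INK4 genes stacked for each library, with TGF-β alone in the left 4 bars and TGF-β plus chaetocin in the right 4. The bars reach 134 to 144 FPKM on the left and 73.2 to 74.2 FPKM on the right, where Cdkn2c and Cdkn2d take a visibly larger part.

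Among the CIP/KIP genes, Cdkn1a dominated and changed little, while the scarcest, Cdkn1c, rose. Cdkn1a (ENSMUSG00000023067, chr17:29090976-29100727, plus strand) encodes p21, the best known CDK inhibitor target of p53. The window before its upstream RefSeq start is shown because it held the only p53 site found before the 8 members with a promoter entry. The window before its downstream start held none. That search took 2 decamers of the p53 consensus with no spacer and at most 1 mismatch, keeping the core C and G of each decamer, on both strands. The site is in capitals at -51 to -32, in plus-strand sequence from RefSeq on GRCm38.p6, and 0.0578% of all windows hold such a match.

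Cdkn1a, chr17:29090729-29090975: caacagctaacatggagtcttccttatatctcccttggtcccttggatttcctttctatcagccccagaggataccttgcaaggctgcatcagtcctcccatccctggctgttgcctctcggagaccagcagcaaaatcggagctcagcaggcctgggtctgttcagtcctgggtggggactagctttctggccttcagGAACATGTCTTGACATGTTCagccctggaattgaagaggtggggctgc

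Cdkn1a read 545, 555.5, 553 and 553 CPM with TGF-β alone and 463, 448, 449 and 458 CPM with chaetocin. The fall was small but larger than the spread, since the 2 groups did not overlap. Its log2 fold change was -0.28 ± 0.02 (SE), or 1.21-fold lower (adjusted p = 3.2e-12), and 65.3% of genes tested moved further. It was -0.17 under total-count scaling and on log2(FPKM + 1), and still called. Trp53 itself, which encodes p53, was higher by 0.47 ± 0.03 (SE; adjusted p = 3.33e-15) on the log2 scale. AC167363.2, a gene model of undetermined type, shares 273 of the 3553 exon bases of Cdkn1a on the opposite strand, and no source used here says whether counting was stranded.

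Cdkn1b (ENSMUSG00000003031, chr6:134920401-134925513, plus strand) encodes p27, which holds quiescent cells in G1. It read 31.4, 28.4, 29.8 and 28.6 CPM with TGF-β alone and 22.0, 20.1, 17.7 and 20.3 CPM with chaetocin, where replicate 1 was the highest and replicate 3 the lowest. The groups stayed apart, with a log2 fold change of -0.55 ± 0.06 (SE; adjusted p = 5.16e-09). On log2(FPKM + 1) it was -0.28, about as small as that of Cdkn1a on counts, and was called there too.

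Cdkn1c (ENSMUSG00000037664, chr7:143458339-143461050, minus strand) encodes p57 and is imprinted, expressed mainly from the maternal copy. Its levels were 5.97, 5.52, 6.32 and 5.41 CPM with TGF-β alone and 12.7, 11.6, 14.5 and 13.6 CPM with chaetocin. Every chaetocin library was above every TGF-β library. The log2 fold change was 1.17 ± 0.10 (SE; adjusted p = 1.47e-11), 2.25-fold higher. The antisense gene Gm44732 shares 625 of its 2039 exon bases, so without known strand the reads of the 2 cannot be told apart. Of its nearest protein-coding neighbours, Kcnq1, a potassium channel gene, was higher by 1.83 ± 0.12 (SE, adjusted p = 9.53e-14). Reads of the Kcnq1 antisense transcript cannot be kept apart without known strand. Slc22a18, a transporter gene, was not called (0.12 ± 0.12 SE; adjusted p = 0.351).

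In FPKM, Cdkn1a made up 95.5% ± 0.34 (SD, n = 4) of the CIP/KIP sum with TGF-β alone and 94.0% ± 0.31 with chaetocin. The share of Cdkn1c was 1.06% to 1.26% with TGF-β alone and 2.53% to 3.31% with chaetocin. The CIP/KIP sum divided by the FPKM of Cdk2 was 35.8 to 42.2 with TGF-β alone and 41.6 to 46.5 with chaetocin, ranges that overlap.

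No RB gene changed by 2-fold, and the 2 RB-like genes went in opposite directions. Rbl2 (ENSMUSG00000031666, chr8:91070057-91123844, plus strand) encodes p130, the pocket protein of quiescent cells that joins E2F4 and the MuvB core in the repressive DREAM complex. Rbl1 (ENSMUSG00000027641, chr2:157145893-157204534, minus strand) encodes p107, a pocket protein that accumulates in cycling cells. The windows before their starts are shown to compare the paralogs (RefSeq, GRCm38.p6, each on its gene's strand, same capitals as before).

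Rbl2, chr8:91069807-91070056: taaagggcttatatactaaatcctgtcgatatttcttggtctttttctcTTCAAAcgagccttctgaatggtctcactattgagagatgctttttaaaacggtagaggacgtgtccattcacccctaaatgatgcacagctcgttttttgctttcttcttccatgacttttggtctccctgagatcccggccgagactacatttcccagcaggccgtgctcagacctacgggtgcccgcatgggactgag
Rbl1, chr2:157204535-157204784: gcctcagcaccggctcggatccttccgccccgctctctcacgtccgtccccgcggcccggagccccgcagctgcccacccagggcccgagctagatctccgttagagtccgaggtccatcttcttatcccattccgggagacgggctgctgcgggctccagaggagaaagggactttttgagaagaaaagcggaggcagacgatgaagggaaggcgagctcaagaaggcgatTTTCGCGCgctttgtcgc

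The E2F word TTTCGCGC lay at -18 to -11 before Rbl1, and Rbl2 held no E2F word in its window but a CHR word on the opposite strand at -201 to -196. The Rbl1 window had 24 CpG dinucleotides and the Rbl2 window 10.

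Rbl2 was even across libraries, at 48.0, 48.8, 48.8 and 48.0 CPM with TGF-β alone and 29.8, 28.4, 27.9 and 29.1 CPM with chaetocin. Its fall of 0.74 ± 0.04 (SE) on the log2 scale, 1.68-fold, was called (adjusted p = 9.53e-15) with no overlap between groups. Aktip, which lies on the opposite strand, shares 693 of the 7558 exon bases of Rbl2 and fell by 0.29 on the log2 scale (adjusted p = 1.08e-06), and Gm45464 shares 892 of them, also on that strand.

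Rbl1 read 18.9, 20.9, 17.8 and 18.6 CPM with TGF-β alone and 22.2, 24.5, 21.8 and 20.8 CPM with chaetocin. It was the member whose groups overlapped, because TGF-β replicate 2 stood above chaetocin replicate 4. The log2 fold change was 0.23 ± 0.06 (SE; adjusted p = 0.00198), and 70.8% of genes tested moved further. The ratio of Rbl2 to Rbl1 in FPKM was 2.53 ± 0.17 (SD, n = 4) with TGF-β alone and 1.29 ± 0.10 with chaetocin.

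Rb1 (ENSMUSG00000022105, chr14:73183673-73325822, minus strand), the gene of the retinoblastoma protein, read 57.6, 52.7, 52.6 and 53.8 CPM with TGF-β alone and 45.9, 44.0, 44.9 and 43.8 CPM with chaetocin. All chaetocin libraries were lower than all TGF-β libraries. The log2 fold change was -0.28 ± 0.04 (SE; adjusted p = 9.91e-07). It was -0.16 under total-count scaling and -0.15 on log2(FPKM + 1), and still called. Rcbtb2 and Lpar6, on the opposite strand, share 488 and 408 of its 6015 exon bases and fell by 0.23 and 0.83 on the log2 scale.

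**Figure D3:**
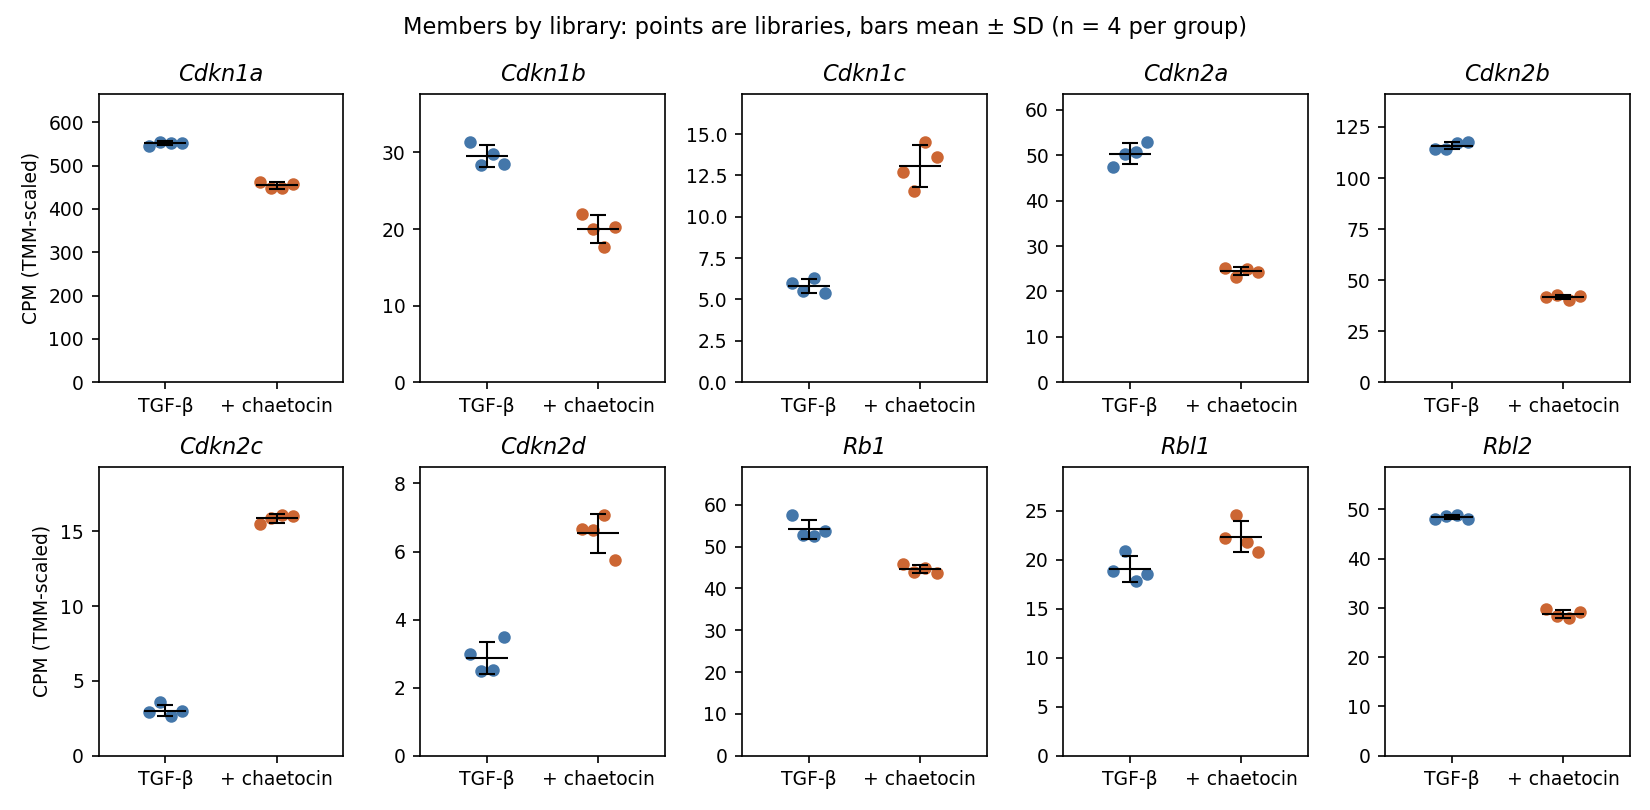
CPM of each member in every library (points, replicates 1 to 4 from left to right) with the mean and SD of each group of 4, each panel on its own axis from 0. The groups are apart in 9 panels, and in the Rbl1 panel TGF-β replicate 2 (20.9 CPM) stands above chaetocin replicate 4 (20.8 CPM).

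Each member was also tested alone over the 8 libraries, by permuting group labels exactly on log2 CPM (two-sided). This exact permutation test reached its smallest possible value, p = 0.0286, in the 9 members whose groups did not overlap, and gave p = 0.0571 for Rbl1. Groups without overlap always give that smallest value, so for those 9 members the test restates the separation and adds no further support. Groups that do not overlap were seen in 74.7% of all genes tested.

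Compared per length, the order of levels was steep at the top. With TGF-β alone Cdkn1a stood at 291.0 ± 2.26 FPKM (SD, n = 4), Cdkn2b at 80.1 ± 1.37 and Cdkn2a at 55.3 ± 2.68. Below them came Rb1 at 11.2 ± 0.44, Cdkn1b at 10.3 ± 0.77, Rbl2 at 9.48 ± 0.09, Rbl1 at 3.76 ± 0.27, Cdkn1c at 3.52 ± 0.25, Cdkn2d at 2.09 ± 0.33 and Cdkn2c at 1.53 ± 0.17 FPKM. The libraries of Rb1 and Cdkn1b overlapped, as did those of Rbl1 and Cdkn1c. With chaetocin the first 4 places kept their order, at 259 ± 4.17 FPKM for Cdkn1a, 31.2 ± 0.69 for Cdkn2b, 29.0 ± 1.02 for Cdkn2a and 9.96 ± 0.19 for Rb1. Cdkn2c rose from the last place to the fifth, at 8.41 ± 0.43 FPKM, where its libraries overlapped those of Cdkn1b at 8.35 ± 0.73, which in turn overlapped those of Cdkn1c at 8.25 ± 1.06. Rbl2 followed at 6.11 ± 0.15, and Cdkn2d at 5.06 ± 0.65 and Rbl1 at 4.77 ± 0.35 FPKM overlapped in the last places.

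Other genes of the pathway were read from 9 further lists in the same fit, counted as called higher or lower among those tested, and their values below are log2 fold changes. Among all genes tested 42.0% were called higher and 38.8% lower, and no list was tested against these shares. Of 5 D-type cyclins and their kinases, 2 were higher and 3 lower (median -0.37). Ccnd1, the cyclin D1 gene, rose by 1.30 ± 0.02 (SE) and Ccnd3 by 0.27, while Ccnd2 fell by 0.70 and Cdk6, a kinase that INK4 proteins bind, fell by 0.63. On log2(FPKM + 1) Cdk6 was at -0.34 and Ccnd3 at 0.48, both still called. Of 10 later cyclins, CDKs and CDC25 phosphatases, 8 were higher and 2 lower (median 0.94), with the cyclin E2 gene Ccne2 at 2.68 ± 0.08 and Cdk1, the mitotic kinase, at 0.91, and with Cdk2 at -0.42 (-0.27 on log2(FPKM + 1)) and the phosphatase gene Cdc25a at -0.53. Among 5 genes of CDK-activating and inhibitory kinases, 2 were higher, 1 was lower and 2 were not called (median 0.05). Pkmyt1 and Wee1, whose products both restrain CDK1, went apart at 1.84 and -0.75, and Ccnh, of the CDK-activating kinase, was at 0.22. The groups overlapped for Ccnh, and limma on log2(FPKM + 1) without a filter did not call it (adjusted p = 0.13). Under total-count scaling 4 of these 5 were higher and 1 lower.

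Of 10 E2F and DP factors 7 were higher and 3 lower (median 0.38). The atypical repressors E2f7 and E2f8 led the rises, at 2.70 ± 0.08 (SE) and 1.12. Tfdp2, a dimer partner, was at -0.80 and E2f3 at -0.40 (-0.53 and -0.25 on log2(FPKM + 1)). Of 8 genes of the DREAM and MuvB complexes, 7 were higher and 1 was lower (median 0.49). The lower gene, Lin52, was at -0.49, and at -0.26 on log2(FPKM + 1). Mybl1 rose by 1.54 and Foxm1, a mitotic activator, by 0.82. Among 12 ubiquitin ligase genes, several of which act on p21, p27 or cyclin E, 4 were higher and 4 lower (median -0.02), and 6 and 3 under total-count scaling. Skp2, which marks p27 for breakdown, rose by 0.59 and Dtl, which does so for p21, by 1.35, whereas Uhrf2 and Ddb1 fell by 0.91 and 0.35, Ddb1 being at -0.22 on log2(FPKM + 1).

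Genes of regulators of the CDK inhibitors were tested as well. Of 19 transcription factors and p53 regulators 5 were higher and 14 lower (median -0.20), and 5 and 9 under total-count scaling. Egr1 rose by 2.57 ± 0.05 (SE), Myc, which represses Cdkn2b and Cdkn1a, fell by 0.99 and Foxo1, which activates Cdkn1b, fell by 0.98. Of 13 polycomb and trithorax genes that act on the Cdkn2a and Cdkn2b locus 7 were higher and 4 lower (median 0.20). Kdm6b, a demethylase that removes the polycomb mark, rose by 1.48 and Kmt2a by 0.60, and Rnf2 and Bmi1, of the repressive complex PRC1, fell by 0.82 and 0.51. Of 12 tested senescence-associated markers 5 were higher, 6 were lower and 1 was not called (median 0.03). Lmnb1, lost from senescent nuclei, rose by 1.05 and Gdf15 by 1.26, and Igfbp5 and Igfbp7, of secreted IGF-binding proteins, fell by 4.68 and 0.45. Igfbp5 was at -1.79 on log2(FPKM + 1), still called. In the KEGG cell cycle pathway of the deposited annotation, which holds all 10 members, 61 of 123 tested genes were higher and 54 lower, with a median of 0.07.

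**Figure D4:**
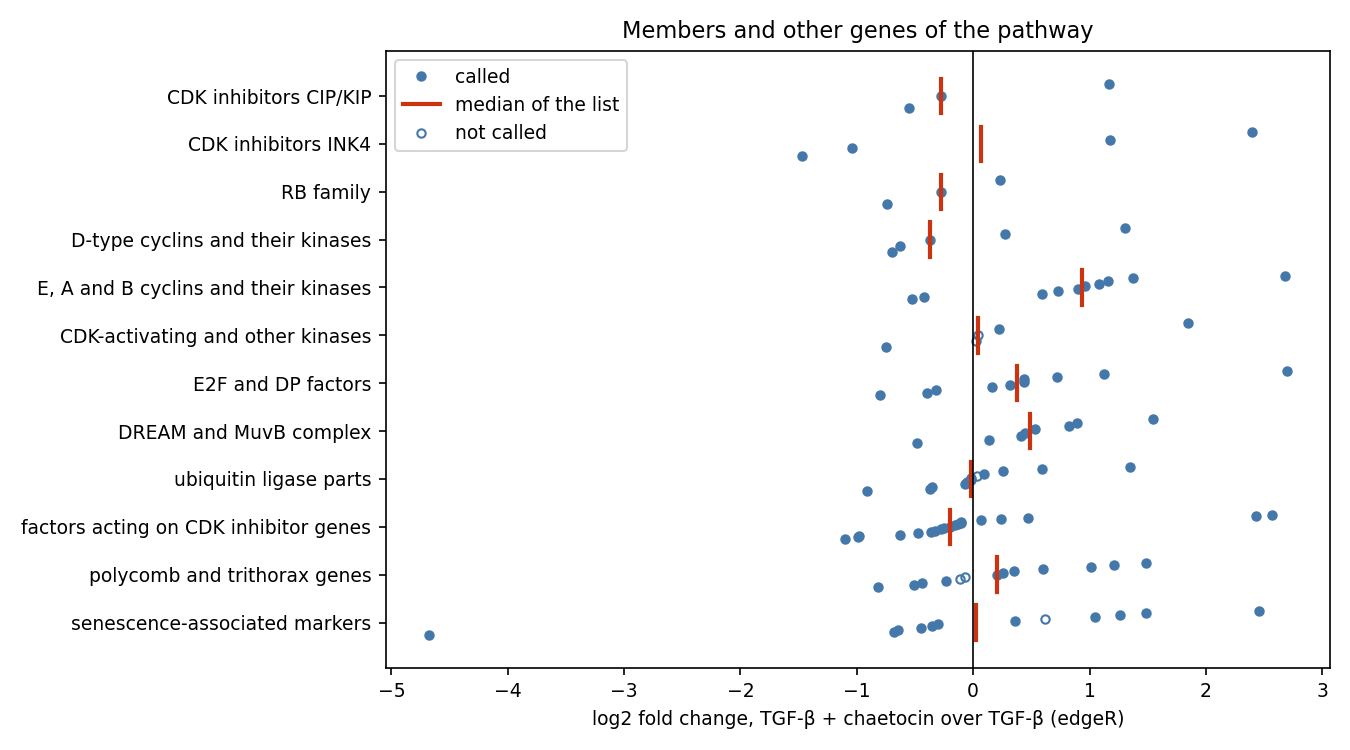
Log2 fold changes (edgeR) of the tested genes of the 3 member families and the 9 other lists, 1 point per gene, filled where called (adjusted p under 0.05) and open where not, with a red bar at each list's median. The medians run from -0.37 for D-type cyclins and their kinases to 0.94 for later cyclins and kinases.

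The genes most like the extreme members across the 8 libraries were found by the root mean square difference of log2 CPM after each gene was centred on its own mean. Nearest to Cdkn2c were Ifih1, a sensor of viral RNA, at a difference of 0.041, the zinc finger gene Zfp959 at 0.066 and Il1rn, the interleukin 1 receptor antagonist, at 0.075. Nearest to Cdkn2b were Nrep at 0.032, the zinc finger gene Zfp503 at 0.033 and Col4a3, a basement membrane collagen chain, at 0.039. With 2 groups this likeness mostly reflects a similar fold, 2.39 to 2.43 on the log2 scale for the first 3 genes and -1.49 to -1.50 for the last 3.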

How the data were processed

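The table that the authors deposited holds, per the file headers, counts and FPKM of every gene by library, group mean FPKM, the log2 ratio of these means, and a p-value and FDR from an unnamed test. Genome builds GRCm38 and mm10 are named in the submitters' processing notes. Aligner, counter and annotation: not given in the sources used here. The labels' protocols name SMARTER mRNA-Seq chemistry. Counts were fitted in edgeR 4.0.16 (R 4.3.3) with filterByExpr, TMM scaling and the quasi-likelihood F test, and p-values were adjusted by Benjamini-Hochberg over 14608 genes. The SE is the log2 fold change divided by the square root of F. In the authors' deposited table, the log2 ratio had the same sign for all 10 members. A count of 3 equals 0.128 to 0.200 CPM. Replicate pairs differed by more than sampling noise (mean chi-square per gene 2.04 to 2.61). The common biological coefficient of variation in edgeR was small, at 2.94%. Overlaps came from GENCODE M21. Promoters matched 8 of 10 members (not Cdkn1c and Rb1). Names follow a rule: all members, in each other list the 2 called genes of smallest p in each direction, and the 3 genes most like each extreme member. Markers and the neighbouring and overlapping genes are named besides. Some list genes are not reported here and were left out of the lists. Members and lists were chosen with earlier results of these data known. Alternatives used DESeq2 1.42.0, limma 3.58.1, FPKM, other scalings and filters, a replicate block and each library left out.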

Additional observations from a re-analysis of the deposited data

How the results depend on the processing

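Under 19 alternatives none of the 10 members changed direction, and 186 of 190 refits kept the call. The 4 losses came from testing against a fold of 1.5 (glmTreat), where Cdkn1a (-0.28), Cdkn1b (-0.55), Rb1 (-0.28) and Rbl1 (0.23) were no longer called, which left 3 members lower. Of 760 refits of the other named genes 746 kept the call and none reversed. The 14 losses were 13 under that test (Bmi1, Ccnd3, Ccnh, Cdc25a, Cdk2, Cdk6, Ddb1, E2f3, Igfbp7, Kmt2a, Lin52, Skp2 and Trp53; adjusted p from 0.0515 for Cdk6 upward) and Ccnh on FPKM without a filter. Testing against 1.5-fold called 3357 genes higher and 1492 lower, against 6129 and 5662. Leaving out each library in turn gave -1.49 to -1.46 for Cdkn2b, 2.33 to 2.47 for Cdkn2c and 0.18 to 0.27 for Rbl1, whose adjusted p (edgeR) then reached 0.015 at most. Replicate numbers are shared by the groups, but same-numbered libraries deviated together only weakly (r = 0.00605 to 0.0805 across genes), not every library correlated best with its own number, and nothing in the labels pairs them. With a replicate block 6105 genes were higher and 5643 lower, and all 10 members kept their call, Cdkn2b at -1.47 and Cdkn2c at 2.39. Total-count scaling moved the median log2 fold change over all genes from 0.02 to 0.14. Low counts limit Cdkn2c and Cdkn2d most, at 48 to 79 counts per TGF-β library.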
